A study of Rattus norvegicus with 9 samples.

Results

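The genes of blood clotting and clot removal that a vessel wall itself expresses were followed in a small artery of 2 rat models of hypertension. The 9 genes comprised the trigger of coagulation (F3), 3 anticoagulants (Tfpi, Thbd and Pros1), 3 genes of platelet adhesion and related binding (Vwf, Mmrn1 and Pdpn) and the 2 plasminogen activators (Plat and Plau). All probesets that the annotation of the RAE230A array, a short-oligonucleotide array of rat transcripts, assigns to one of these symbols were taken, which gave 13 of 15866 non-control probesets: 3 for Thbd, 2 each for Tfpi and Plau, and 1 for each of the other genes. Total RNA came from the saphenous artery, a muscular artery of the hind limb, at its first-order side branch, of male rats aged 16 weeks. The SHR group held untreated spontaneously hypertensive rats, an inbred strain whose blood pressure is high from genetic causes. The ACTH group held Wistar-Kyoto rats given adrenocorticotropic hormone, which drives the adrenal cortex to release corticosteroids, at 0.1 mg/kg/day under the skin for 4 weeks according to the sample labels (the study's own methods state a different dose). The WKY group held untreated Wistar-Kyoto rats, the normotensive strain against which both models were set. Each group had 3 arrays, and each array carried RNA pooled from 2 to 3 rats, so that the spread between arrays is a spread between pools and animals within a pool cannot be told apart. ACTH was given to WKY rats only, and SHR differ from WKY in strain as well as in blood pressure.

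Coagulation at a vessel wall starts when tissue factor, normally kept outside the lumen by adventitial and smooth muscle cells, meets factor VII of the blood. Endothelial cells oppose it with tissue factor pathway inhibitor, with thrombomodulin, which turns thrombin from a procoagulant into an activator of protein C, and with the plasminogen activators that start the breakdown of fibrin. The same cells store von Willebrand factor, which tethers platelets to an injured wall.

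Values are MAS5 signals on a linear scale, which the authors scaled to a common target on every array, and a log2 fold change is the difference between the mean log2 signals of 2 groups. The median signal lay between 52.3 and 58.1 on the 9 arrays, and correlations of log2 signals between arrays were 0.951 to 0.979 within groups and 0.917 to 0.961 between them. A probeset was tested if its third-highest signal reached 44, which 9125 probesets and 12 of the 13 member probesets did. The probeset left out was one of Thbd, and since a probeset could pass through a single group in which it is bright, the 12 are not all members. A call is an adjusted p under 0.05 in a limma fit of the 3 groups, adjusted by Benjamini and Hochberg over the tested probesets, and the error after ± is a standard error for a fold change and a standard deviation for a mean. The 3'/5' signal ratio of GAPDH, which rises as RNA or its amplified copies get shorter, averaged 4.17 ± 0.860 in SHR, 4.05 ± 0.436 in ACTH and 5.41 ± 0.541 in WKY (n = 3 each, exact two-sided permutation p = 0.2 for SHR and 0.1 for ACTH against WKY, where 0.1 is the smallest p that 3 against 3 arrays allow). For beta-actin it averaged 8.80 ± 0.408 in SHR, 9.01 ± 0.655 in ACTH and 12.1 ± 2.06 in WKY (exact permutation p = 0.1 for each model against WKY). WKY thus had the highest mean of both ratios. Single arrays came close: for GAPDH SHR 3 (5.16) was above WKY 3 (4.91), and for beta-actin WKY 3 (9.77) was just above ACTH 3 (9.68). The part of RNA length in the results was not tested beyond a fit with the GAPDH ratio as a covariate, given below where it ends a call. The arrays were scanned on 4 days. SHR 1, SHR 2 and WKY 2 shared day 1, all ACTH arrays and SHR 3 shared day 2, and WKY 3 and WKY 1 had day 3 and day 4 to themselves, so ACTH and WKY never met on a day.

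Across the 3 groups, 6 of the 12 tested member probesets varied (moderated F test, adjusted p under 0.05), against 4.11% of all tested probesets. The members were chosen with earlier results of these data known, so this share and those below describe the list and test nothing about it. In SHR against WKY, 2 of the 12 were called higher, for Tfpi and Thbd, where 0.964% of all tested probesets were, and 1 was called lower, for Vwf, where 1.08% were. In ACTH against WKY, 4 were called higher, for F3, Thbd, Mmrn1 and Pdpn, against 0.548% of all tested probesets, and 0 were called lower by limma (0 at an unadjusted p under 0.05), against 0.658%. Between the models, in SHR against ACTH, 1 was called higher (Tfpi, against 1.58% of all) and 1 lower (F3, against 1.82% of all). Taking the brightest tested probeset of each gene, the median log2 change of the 9 genes was 0.30 in SHR against WKY (5 of 9 above 0), 0.31 in ACTH against WKY (6 of 9) and -0.25 in SHR against ACTH (2 of 9), and the medians over all tested probesets were -0.005, 0.02 and -0.02. The 2 changes against WKY share their control arrays. The balance of calls over all probesets moved with the scaling: 50 higher and 60 lower in ACTH against WKY became 42 and 83 when each array was centred on its median, and 144 higher and 166 lower in SHR against ACTH became 199 and 130.

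**Figure D1:**
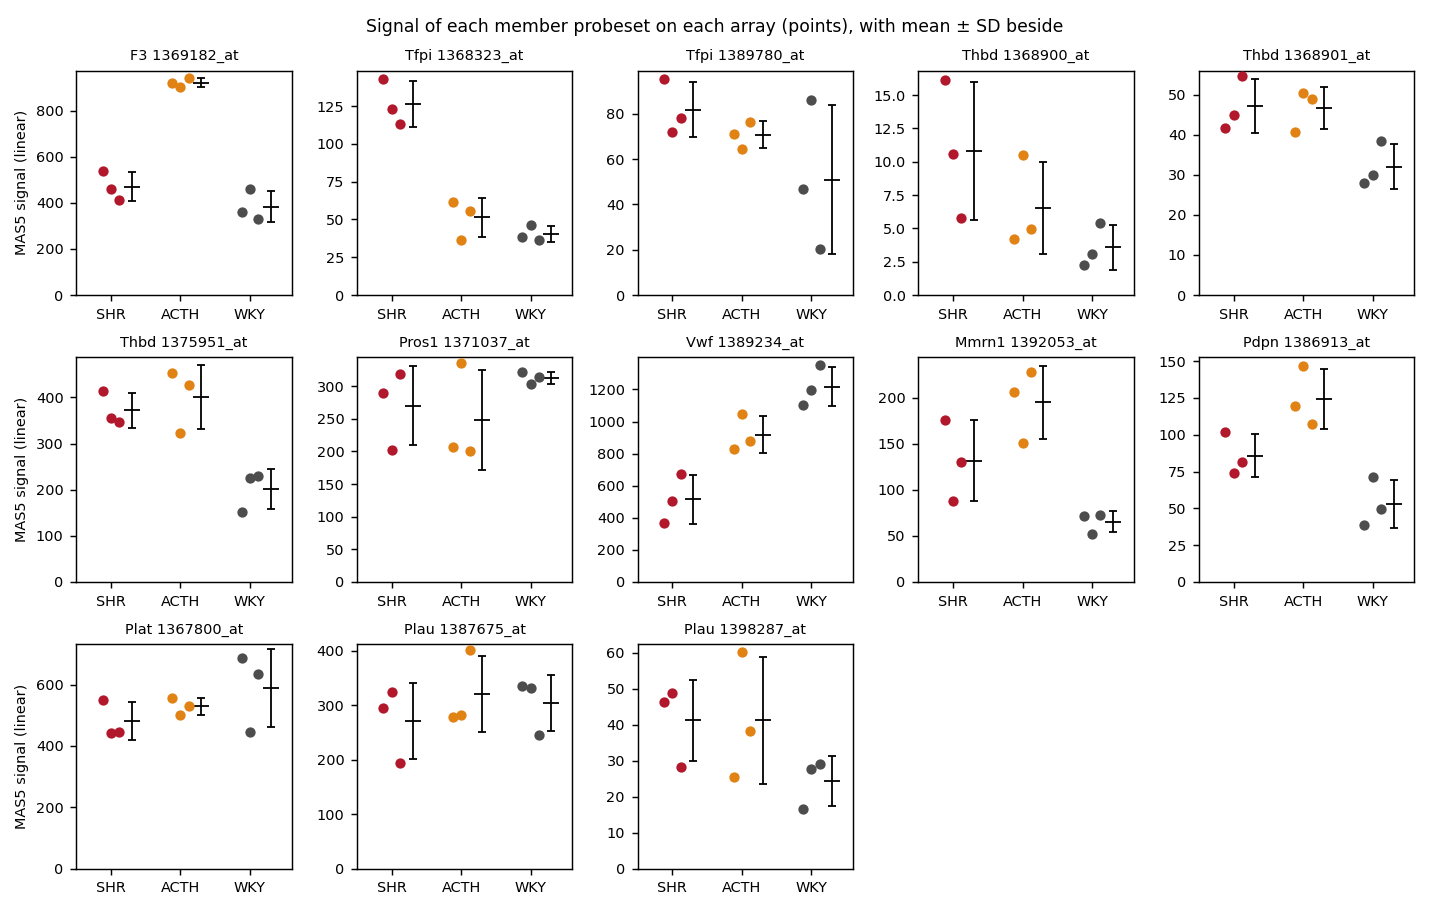
MAS5 signal (linear scale, each panel from 0) of the 13 member probesets on each of the 9 arrays, with SHR, ACTH and WKY from left to right, 1 point per array and the mean ± SD (n = 3) beside the points. F3 is highest on the 3 ACTH arrays (903 to 943), Tfpi 1368323_at on the 3 SHR arrays (113 to 143), and Vwf is lowest on the SHR arrays (366 to 674).

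F3 encodes tissue factor, the cell-surface receptor of factor VII that sets coagulation off. Its only probeset, 1369182_at, gave signals of 538, 462 and 412 on the SHR arrays, 919, 903 and 943 on the ACTH arrays and 361, 459.7 and 330.0 on the WKY arrays. The ACTH arrays lay close together and well above all others, while the ranges of SHR and WKY overlapped. F3 was 2.43-fold higher in ACTH than in WKY (log2 change 1.28 ± 0.16, adjusted p = 0.00743) and was lower in SHR than in ACTH (-0.98 ± 0.16, adjusted p = 0.0106). The change in SHR against WKY, 0.30 ± 0.16, did not pass (adjusted p = 0.387, 95% interval -0.06 to 0.66). Within scan day 2, SHR 3 stood against the ACTH arrays at -1.16, and with scan day as a fixed block the ACTH change against WKY was 1.28 (adjusted p = 0.325, 3 residual degrees of freedom, estimated only through the SHR arrays, with WKY 2 as the only WKY array). The ACTH call was also lost with the GAPDH ratio as a covariate (1.25, adjusted p = 0.16), over all non-control probesets (adjusted p = 0.092) and without moderation of the variance (adjusted p = 0.068), and the call of SHR against ACTH was lost without ACTH 1 (-0.98, adjusted p = 0.051), with the fixed scan day block (-1.16, adjusted p = 0.078) and over all non-control probesets (adjusted p = 0.079).

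The probesets whose pattern over the 9 arrays was most like that of F3, by the root mean square difference of mean-centred log2 signals, were those of PCOLCE2 (0.171), Cdkn1c (0.189) and Aldh3a1 (0.195). Their log2 changes in ACTH against WKY were 1.47, 0.89 and 1.40, and in SHR against WKY 0.33, 0.08 and 0.23. Like changes follow from the way such probesets were picked, here and for the genes below, and are no separate result. Cdkn1c encodes a cyclin-dependent kinase inhibitor and Aldh3a1 an aldehyde dehydrogenase.

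Tfpi encodes tissue factor pathway inhibitor, the Kunitz-type inhibitor that blocks factor Xa and the complex of tissue factor with factor VII. Probeset 1368323_at read 143, 123 and 113 in SHR, 61.8, 36.5 and 55.8 in ACTH and 38.6, 46.6 and 36.4 in WKY. All SHR arrays were above all others, and ACTH and WKY overlapped at about the median signal of an array. The change was 3.12-fold in SHR against WKY (log2 1.64 ± 0.21, adjusted p = 0.00265) and 2.51-fold in SHR against ACTH (1.33 ± 0.21, adjusted p = 0.00827), and it did not pass in ACTH against WKY (0.31 ± 0.21, adjusted p = 0.606, 95% interval -0.14 to 0.77). The SHR change was 1.51 within scan day 1 against WKY and 1.18 within scan day 2 against ACTH. These calls held when any one array was left out, but that against WKY was lost with scan day as a fixed block (1.51, adjusted p = 0.19) and with the GAPDH covariate (1.46, adjusted p = 0.085), and that against ACTH with the scan day block (1.18, adjusted p = 0.218), over all non-control probesets (1.33, adjusted p = 0.071) and without moderation (1.33, adjusted p = 0.06).

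The other Tfpi probeset, 1389780_at, gave a different picture. It read 95.2, 72.0 and 78.3 in SHR, 71.3, 64.5 and 76.4 in ACTH and 46.9, 85.9 and 20.2 in WKY. The WKY arrays spread over a range that included every ACTH value and most SHR values, and no comparison passed (SHR against WKY 0.91 ± 0.40, adjusted p = 0.298; ACTH against WKY 0.70 ± 0.40, adjusted p = 0.549; SHR against ACTH 0.20 ± 0.40, adjusted p = 0.85). Within scan day 1 its change in SHR against WKY was -0.053. Whether the pair of Tfpi probesets differ in their change was not tested. The patterns most like that of 1368323_at belonged to Prps2 (0.208), Tex2 (0.243) and Minpp1 (0.254), with log2 changes of 1.58, 1.57 and 1.25 in SHR against WKY.

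Since tissue factor and its inhibitor act on the same complex, the log2 signal of F3 minus that of Tfpi 1368323_at was taken on each array. This probeset was used because its mean signal over all arrays was higher (72.8 against 67.8 for 1389780_at). It was brighter only in SHR (126 against 81.8), and dimmer in ACTH (51.4 against 70.7) and WKY (40.5 against 51.0). The choice thus rested on the SHR signals, so the p-values below that involve SHR describe its separation and do not test it. The difference shows unequal change of the pair and says nothing of their relative amounts. The difference was 1.91, 1.91 and 1.86 in SHR, 3.90, 4.63 and 4.08 in ACTH and 3.22, 3.30 and 3.18 in WKY. The 3 groups did not overlap: SHR was lowest and ACTH highest. The mean changed by -1.34 in SHR against WKY, by 0.97 in ACTH against WKY and by -2.31 in SHR against ACTH (exact two-sided permutation p = 0.1 each, the smallest possible). With the other Tfpi probeset the mean changes were -0.61 (exact permutation p = 0.3), 0.57 (0.4) and -1.18 (0.1), so the separation of SHR and of ACTH from WKY rested on 1368323_at.

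**Figure D2:**
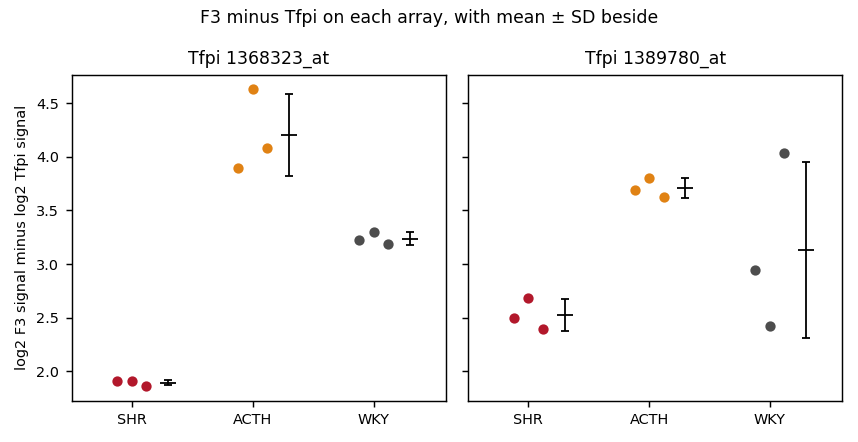
Log2 signal of F3 minus log2 signal of Tfpi on each array, for Tfpi 1368323_at (left) and 1389780_at (right), with SHR, ACTH and WKY from left to right and the mean ± SD (n = 3) beside the points. With 1368323_at the SHR arrays sit at 1.86 to 1.91 and the WKY arrays at 3.18 to 3.30, while with 1389780_at the WKY arrays spread from 2.42 to 4.03.

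Thbd encodes thrombomodulin, the endothelial thrombin receptor on which protein C is activated, and its 3 probesets differed widely in signal. The brightest, 1375951_at, read 415, 355 and 346 in SHR, 453, 322 and 428 in ACTH and 152, 225 and 229 in WKY. Every array of either model was above every WKY array, and the models overlapped. It rose 1.87-fold in SHR (log2 0.90 ± 0.20, adjusted p = 0.0491) and by a log2 change of 1.00 ± 0.20 in ACTH (adjusted p = 0.0429), and SHR and ACTH differed by -0.10 ± 0.20 (adjusted p = 0.853, 95% interval -0.54 to 0.34). Both calls lay close to the threshold. The one in SHR was lost without any single array other than ACTH 2 (adjusted p 0.056 to 0.135), and the one in ACTH without any single array other than SHR 1 (adjusted p 0.052 to 0.192), and neither passed over all non-control probesets, without moderation, in fits of the compared groups alone or with scan day or the GAPDH ratio in the fit (adjusted p 0.053 to 0.387 in SHR and 0.062 to 0.526 in ACTH). Within scan day 1 its change in SHR was 0.77.

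The second Thbd probeset, 1368901_at, was below the median signal of the arrays. It read 41.7, 45.0 and 54.6 in SHR, 40.6, 50.3 and 48.9 in ACTH and 27.8, 30.0 and 38.3 in WKY. Here too no array of either model overlapped WKY, but the changes, 0.56 ± 0.17 in SHR (adjusted p = 0.145) and 0.55 ± 0.17 in ACTH (adjusted p = 0.194), did not pass. The third, 1368900_at, had a mean signal at percentile 13.2 of all non-control probesets and was not tested. It read 16.1, 10.6 and 5.76 in SHR, 4.17, 10.5 and 4.95 in ACTH and 2.23, 3.05 and 5.41 in WKY. The signals were low throughout and the groups ACTH and WKY overlapped, while the SHR arrays were all above the WKY arrays. The annotation lists no transcript accession for 1375951_at, so its place on the Thbd transcript is not given in the sources used here, and 1368900_at and 1368901_at were designed on one and the same sequence entry. The patterns nearest to that of 1375951_at were those of Oard1 (0.175), Retreg1 (0.220) and Ctps2 (0.228).

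Pros1 encodes protein S, the cofactor of activated protein C. It read 289.5, 202 and 319 in SHR, 207, 336 and 201 in ACTH and 322, 303 and 313 in WKY. The WKY arrays were close together and the model arrays reached from well below them to just above. No comparison passed: the log2 change was -0.24 ± 0.23 in SHR (adjusted p = 0.638, 95% interval -0.74 to 0.26) and -0.38 ± 0.23 in ACTH (adjusted p = 0.57, 95% interval -0.88 to 0.13).

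Vwf encodes von Willebrand factor, the multimeric protein that endothelial cells store in Weibel-Palade bodies and that carries factor VIII in plasma. Probeset 1389234_at read 366, 504 and 674 in SHR, 829, 1047 and 880.1 in ACTH and 1105, 1197 and 1349.6 in WKY. The 3 groups did not overlap, with SHR lowest, ACTH between and WKY highest. The Vwf signal in SHR was 0.412 of that in WKY (log2 change -1.28 ± 0.21, adjusted p = 0.0118). Vwf had no second probeset to set beside this one. In ACTH the change was -0.41 ± 0.21 and did not pass (adjusted p = 0.496, 95% interval -0.88 to 0.06), and SHR stood against ACTH at -0.87 ± 0.21, just short of the threshold (adjusted p = 0.0536). Within scan day 1 the SHR change against WKY was -1.48, and within scan day 2, where SHR 3 was the only SHR array, the difference from ACTH was -0.44. The SHR call was lost without WKY 3 (-1.20, adjusted p = 0.051), with the GAPDH covariate (-0.91, adjusted p = 0.242), with the fixed scan day block (-1.48, adjusted p = 0.114), and over all non-control probesets or without moderation (-1.28, adjusted p = 0.089 in both), while the difference between SHR and ACTH passed without SHR 3 (-1.09, adjusted p = 0.026) and also under quantile normalization, with log2 of signal plus 16, with a variance trend, with a mean signal of at least 100 as the filter and with the GAPDH covariate (-0.91 to -0.85, adjusted p 0.018 to 0.048).

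In bulk tissue, fewer cells of a type and less RNA of a gene per cell cannot be told apart, so the other endothelial genes are given beside Vwf. Of 16 endothelial markers, 13 were tested, and 12 of the 13 had a positive log2 change in SHR against WKY (median 0.31). Over all tested genes 3444 of 6918 did (median -0.002). The 12 include Flt1, which entered the test only through its SHR signals. Emcn, the sialomucin endomucin (1.15 ± 0.20, adjusted p = 0.0169), and Erg, an endothelial transcription factor (0.99 ± 0.15, adjusted p = 0.00653), rose. Flt1, a receptor of vascular endothelial growth factor, had 1 tested probeset, which read 54.3, 58.5 and 72.4 in SHR, 21.2, 23.7 and 31.4 in ACTH and 15.3, 26.7 and 16.2 in WKY; it reached the minimum only through SHR, so its difference is a description, and 2 other Flt1 probesets stayed under the minimum with SHR and WKY overlapping in 1 of them. The summed signal of the 13 markers, Flt1 included, was 5667 to 6039.6 on the SHR arrays, 4789 to 5201 on the ACTH arrays and 4799 to 5389 on the WKY arrays, so every SHR array was above every other array while Vwf was lower there. Other endothelial probesets were lower in SHR, as Vwf was. Cldn5, a tight junction protein of endothelium and the only one of the 13 with a negative change, read 1003, 921 and 985 in SHR, 755, 784 and 769.6 in ACTH and 1073, 1043 and 1295 in WKY, without overlap between WKY and either model, but did not pass (SHR -0.22 ± 0.13, adjusted p = 0.439; ACTH -0.56 ± 0.13, adjusted p = 0.0982). Icam2 1390310_at, a second probeset of a counted gene, read 50.8, 20.1 and 36.3 in SHR, 102, 133 and 80.2 in ACTH and 95.4, 106 and 135 in WKY (SHR against WKY -1.73 ± 0.31, adjusted p = 0.0192), although the brighter Icam2 probeset, 1389235_at, had a change of 0.44 ± 0.16 (adjusted p = 0.226). The probesets most like Vwf over the 9 arrays were those of Cdkn1a (0.166), Chchd5 (0.207) and Des (0.212), with log2 changes in SHR against WKY of -1.25, -0.90 and -1.45. Cdkn1a encodes a cell cycle inhibitor and Des the muscle intermediate filament desmin.

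Mmrn1 encodes multimerin, a large secreted protein that binds factor V, known from platelets and endothelium and also from lymphatic vessels. Pdpn encodes podoplanin, a membrane mucoprotein that activates platelets through their receptor Clec1b and that is a standard marker of lymphatic endothelium. Their promoter windows, shown because both genes rose with ACTH, are those of RefSeq on build GRCr8, from 250 bases before to 50 bases after the listed transcript start, and RefSeq windows matched 5 of the 9 genes (Tfpi, Pros1, Mmrn1, Pdpn and Plau). The Mmrn1 window is chr4:91233166-91233465 on the plus strand, inside the annotated span of the gene, and the Pdpn window is chr5:160918910-160919209 on the minus strand, across the 5′ end of the gene. Capitals mark matches on either strand to any of 4 motifs searched: the half-site of the glucocorticoid receptor (AGAACA), the Sp1 core (GGGCGG), the AP-1 site (TGANTCA) and the TATA box (TATAAA).
Mmrn1: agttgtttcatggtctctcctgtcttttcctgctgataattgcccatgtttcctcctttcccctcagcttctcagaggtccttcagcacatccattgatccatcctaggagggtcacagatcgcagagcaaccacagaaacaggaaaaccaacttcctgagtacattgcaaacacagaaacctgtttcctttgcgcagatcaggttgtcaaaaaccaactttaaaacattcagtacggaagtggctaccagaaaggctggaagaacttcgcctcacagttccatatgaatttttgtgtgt
Pdpn: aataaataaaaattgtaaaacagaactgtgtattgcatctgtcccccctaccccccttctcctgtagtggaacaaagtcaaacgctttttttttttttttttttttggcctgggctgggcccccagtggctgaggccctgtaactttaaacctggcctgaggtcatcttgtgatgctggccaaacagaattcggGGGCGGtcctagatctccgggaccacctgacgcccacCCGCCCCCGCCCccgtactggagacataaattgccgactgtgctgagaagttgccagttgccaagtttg
Pdpn held 3 matches, all to the Sp1 core, with 2 of them directly adjacent and none overlapping another motif, and Mmrn1 held 0 matches to the 4 motifs. Of the 33469 promoter windows of the rat, 33.1% held a Sp1 core, 20.7% a glucocorticoid receptor half-site, 14.2% a TATA box and 7.33% an AP-1 site. A match is a run of letters and not a measured site.

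Mmrn1 1392053_at read 176, 88.2 and 130.4 in SHR, 207, 151 and 227 in ACTH and 71.5, 52.5 and 72.3 in WKY. All arrays of both models were above all WKY arrays, and the models overlapped. The 2.97-fold rise in ACTH passed (log2 1.57 ± 0.26, adjusted p = 0.0193), and the change of 0.97 ± 0.26 in SHR did not (adjusted p = 0.0932), nor did the difference of SHR from ACTH (-0.60 ± 0.26, adjusted p = 0.266). Within scan day 1 the SHR change was 1.25, and without SHR 2, the lowest SHR array, it passed (1.23, adjusted p = 0.047). The ACTH call was lost without WKY 1 (1.64, adjusted p = 0.058), WKY 3 (1.65, adjusted p = 0.059), ACTH 1 (1.52, adjusted p = 0.096) or ACTH 3 (1.45, adjusted p = 0.091), and also with the fixed scan day block (1.81, adjusted p = 0.447), with the GAPDH covariate (1.25, adjusted p = 0.376), over all non-control probesets (adjusted p = 0.163) and without moderation (adjusted p = 0.154).

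Pdpn 1386913_at read 102, 73.9 and 81.8 in SHR, 119, 147 and 107 in ACTH and 38.9, 71.1 and 49.3 in WKY. The order ACTH, SHR, WKY held without overlap, though SHR 2 and WKY 2 lay close together. Pdpn rose 2.40-fold in ACTH (log2 1.26 ± 0.23, adjusted p = 0.0293), while 0.73 ± 0.23 in SHR (adjusted p = 0.151) and -0.54 ± 0.23 in SHR against ACTH (adjusted p = 0.264) did not pass. Within scan day 1 the SHR change was 0.29, and without WKY 2 it passed (0.96, adjusted p = 0.049). The ACTH call was lost without WKY 1 (1.06), WKY 3 (1.23), ACTH 1 (1.29), ACTH 2 (1.14), ACTH 3 (1.36) or SHR 3 (1.26), with adjusted p 0.052 to 0.12, with the fixed scan day block (0.88, adjusted p = 0.546), with the GAPDH covariate (1.48, adjusted p = 0.219), over all non-control probesets (adjusted p = 0.18), without moderation (adjusted p = 0.165) and in a fit of ACTH and WKY alone (adjusted p = 0.061).

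Both tested markers of lymphatic endothelium read higher on every array of either model than on every WKY array, as Mmrn1 and Pdpn did. Of 6 such markers that are no member, 5 had a probeset and 2 were tested. Lyve1, the hyaluronan receptor of lymphatic vessels and of some macrophages, read 72.0, 51.9 and 103 in SHR, 133, 153 and 98.3 in ACTH and 27.4, 46.7 and 33.9 in WKY, and rose in ACTH (1.84 ± 0.28, adjusted p = 0.013; in SHR 1.05 ± 0.28, adjusted p = 0.0919). Reln, the secreted glycoprotein reelin, read 128, 103 and 127 in SHR, 99.4, 83.6 and 95.2 in ACTH and 49.6, 57.2 and 38.1 in WKY, and rose in both models (SHR 1.31 ± 0.18, adjusted p = 0.00389; ACTH 0.96 ± 0.18, adjusted p = 0.0316). In SHR against ACTH the change of Reln was positive (0.36 ± 0.18, adjusted p = 0.34 by limma). Those of Mmrn1 and Pdpn were negative, and none of the 3 passed. A second Reln probeset, under the minimum, read 15.9, 12.2 and 19.6 in SHR, 13.1, 1.1 and 4.0 in ACTH and 1.4, 2.5 and 2.9 in WKY. The summed signal of Lyve1 and the tested Reln probeset was 155 to 229 in SHR, 193 to 236 in ACTH and 72.1 to 104 in WKY. The defining transcription factor Prox1 stayed under the minimum for testing, with 47.6, 27.5 and 27.9 in SHR, 37.2, 25.7 and 39.1 in ACTH and 16.2, 19.0 and 12.6 in WKY, and Flt4 read no more than 19.1 on any array. Nrp2, also under the minimum, read 1.8, 17.9 and 4.4 in SHR, 3.1, 15.2 and 6.0 in ACTH and 1.8, 16.5 and 27.0 in WKY, and the groups overlapped. The part of lymphatic vessels in the signals of Mmrn1 and Pdpn was not tested. The probesets most like Mmrn1 were those of Spp1 (0.322), Pdha1 (0.362) and Ide (0.393), and those most like Pdpn were Slc29a1 (0.205), Smpdl3a (0.210) and Gda (0.218).

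**Figure D3:**
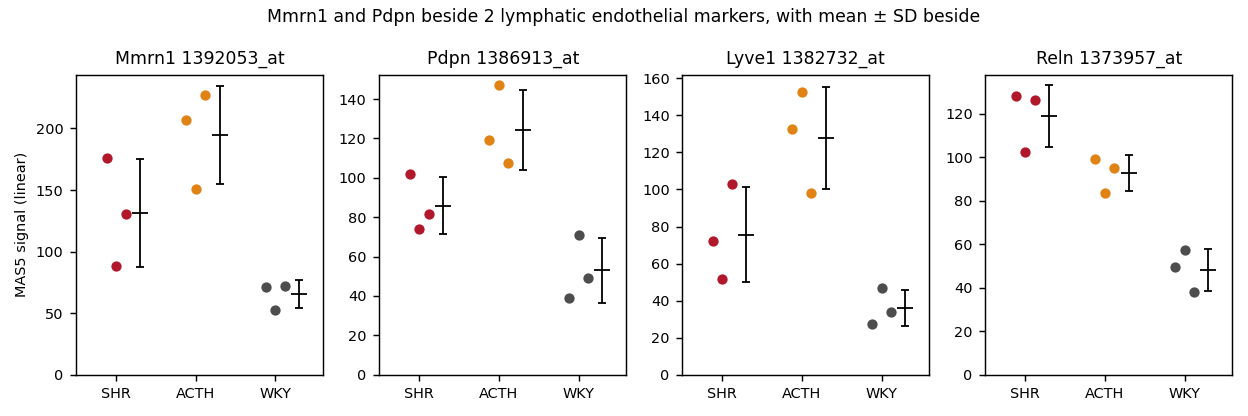
MAS5 signal (linear scale from 0) of Mmrn1, Pdpn and the lymphatic endothelial markers Lyve1 and Reln on each array, with SHR, ACTH and WKY from left to right and the mean ± SD (n = 3) beside the points. In each panel the WKY arrays are the lowest, and Mmrn1, Pdpn and Lyve1 have their highest mean in ACTH while Reln has it in SHR.

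Plat encodes tissue plasminogen activator, the endothelial enzyme that turns plasminogen into plasmin on fibrin. It read 551, 442 and 447 in SHR, 555, 501 and 532 in ACTH and 686, 445 and 636 in WKY. The groups overlapped, and neither the change in SHR (-0.28 ± 0.18, adjusted p = 0.477, 95% interval -0.68 to 0.12) nor that in ACTH (-0.13 ± 0.18, adjusted p = 0.841, 95% interval -0.53 to 0.27) passed. Plau encodes the urokinase-type activator, which acts mostly at cell surfaces. Its brighter probeset, 1387675_at, read 295, 325 and 193 in SHR, 279, 281 and 401 in ACTH and 334, 332 and 245 in WKY, with changes of -0.19 ± 0.23 in SHR (adjusted p = 0.736, 95% interval -0.70 to 0.33) and 0.07 ± 0.23 in ACTH (adjusted p = 0.944, 95% interval -0.45 to 0.58). The dimmer one, 1398287_at, read 46.3, 48.8 and 28.3 in SHR, 25.3, 60.1 and 38.2 in ACTH and 16.5, 27.7 and 29.1 in WKY. Its changes, 0.76 ± 0.34 in SHR (adjusted p = 0.298) and 0.71 ± 0.34 in ACTH (adjusted p = 0.438), were positive where those of the other probeset were near 0, and neither passed. A p that misses the threshold does not show that the levels were alike.

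**Figure D4:**
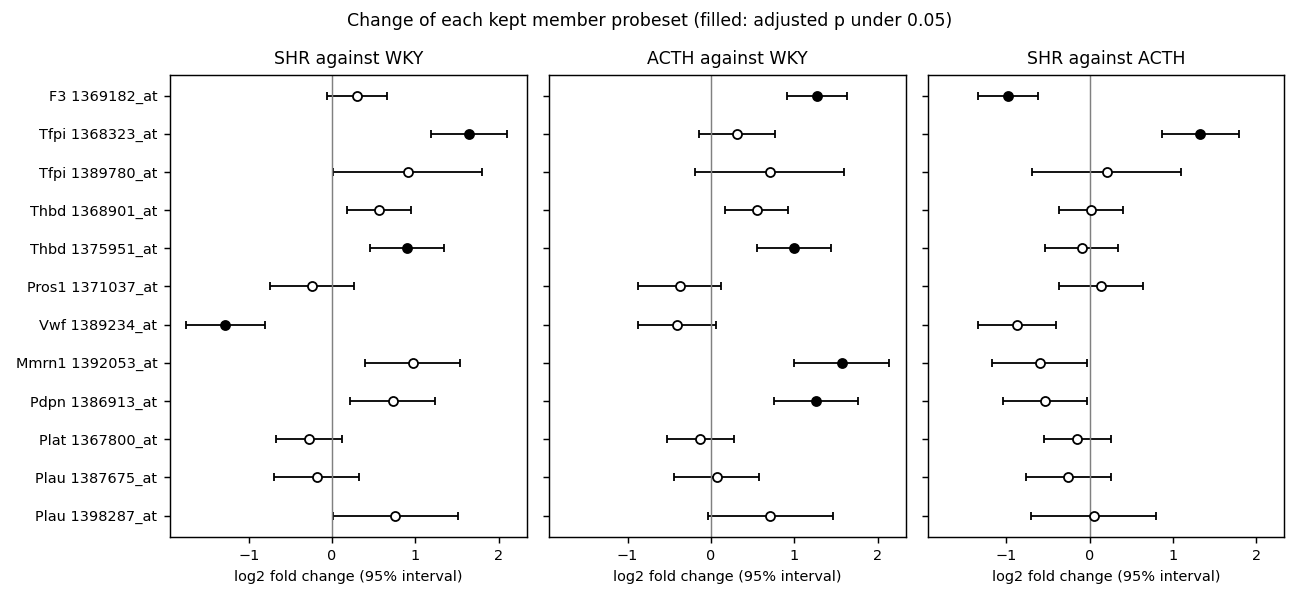
Log2 fold change (points) with its 95% interval (bars) for the 12 tested member probesets in SHR against WKY, ACTH against WKY and SHR against ACTH, with filled points where the adjusted p was under 0.05. Vwf is the only filled point left of 0 against WKY (-1.28, in SHR), and 1375951_at of Thbd is filled in both models (0.90 in SHR and 1.00 in ACTH).

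Among the wider clotting and fibrinolysis genes, 1 was called against WKY in each model. Of 59 listed genes that are no member, 42 had a probeset and 21 were tested, with a median change of 0.24 in SHR and 0.06 in ACTH (all tested genes -0.002 and 0.02). In SHR against WKY 1 was called higher and 0 lower (7 had an unadjusted p under 0.05, and 16 were above 0), where 59 of all 6918 tested genes were called higher, 61 lower and 1058 had such a p. In ACTH against WKY 1 was called higher and 0 lower (1 unadjusted), where 37 and 46 of all tested genes were called (829 unadjusted), and in SHR against ACTH 0 were called in limma (7 unadjusted), where 105 and 112 were (1138 unadjusted). The gene that rose in SHR was Fgl2, a fibrinogen-like protein with prothrombinase activity described in mouse. It read 209.5, 163 and 142 in SHR, 107, 85.7 and 93.4 in ACTH and 78.2, 114 and 69.4 in WKY, so every SHR array was above all others (log2 0.99 ± 0.21, adjusted p = 0.0467; in ACTH 0.16 ± 0.21, adjusted p = 0.84). The call of Fgl2 lay close to the threshold and was not followed through the alternative fits. The gene that rose in ACTH was Pf4, platelet factor 4, a chemokine of platelet granules that macrophages can also express. It read 167, 158 and 146 in SHR, 342, 423 and 245 in ACTH and 57.2, 139.5 and 84.8 in WKY (ACTH against WKY 1.90 ± 0.30, adjusted p = 0.0151; SHR against WKY 0.84 ± 0.30, adjusted p = 0.203).

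By role, 6 coagulation factors and cofactors were tested and 0 were called, and the brightest were Vkorc1, the vitamin K epoxide reductase (log2 change 0.07 in SHR and -0.10 in ACTH), Mcfd2, which helps export factors V and VIII (0.25 and 0.19), and F5, factor V (-0.52 and -0.17). Of 5 anticoagulants 0 were called, among them Anxa5, which shields phospholipid (0.19 in SHR and -0.05 in ACTH), Ptgis, the prostacyclin synthase (-0.20 and -0.18), and Procr, the endothelial protein C receptor that works beside thrombomodulin (0.58 and 0.18). Of the thrombin receptor family, F2r changed by -0.67 ± 0.20 in SHR (adjusted p = 0.143) and 0.01 ± 0.20 in ACTH (adjusted p = 0.992), and F2rl1, a receptor of the family that trypsin cleaves, by 0.31 and 0.26. Of 6 tested genes in the fibrinolysis list, Fgl2 was the only call, and the role described for it is in clot formation. Anxa2 and S100a10 form the surface complex that assembles plasminogen with tissue plasminogen activator, and their changes in SHR were 0.33 (adjusted p = 0.297) and 0.80 ± 0.22 (adjusted p = 0.108), with 0.06 and 0.11 in ACTH. Serpine2, an inhibitor of thrombin and urokinase, changed by 0.16 in SHR and 0.08 in ACTH, and Mmrn2, the endothelial relative of Mmrn1, by 0.31 and -0.10.

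Markers of other cell types moved with the groups, and their part in the results above was not tested. The 8 tested macrophage markers all had positive changes in both models (medians 0.83 in SHR and 1.35 in ACTH), 1 of them, C1qc, was called in ACTH (2.34 ± 0.47, adjusted p = 0.0464), and their summed signal was 1063 to 1629 in SHR, 1612 to 2415 in ACTH and 460.3 to 1376 in WKY. The defining leukocyte gene Ptprc read no more than 20.0 on any array. Pf4 was also the only tested platelet marker of 6 (3 with a probeset), since Ppbp and Itga2b lay under the minimum. Of 8 smooth muscle markers only Des was called, lower in SHR (summed signal 20603 to 22706 in SHR, 20626 to 21929.9 in ACTH and 19943 to 23979 in WKY). The mean log2 signal of the 8 was 10.37 to 10.818 in SHR, 10.94 to 10.96 in ACTH and 10.824 to 11.10 in WKY. Every SHR array was thus below all others, though SHR 2 lay close to WKY 2. In SHR against WKY 3 of the 8 had a positive change (median -0.20). Lmod1 changed by -0.80 ± 0.25 there (adjusted p = 0.15 by limma) without overlap. Of 7 fibroblast markers 1, Col1a1, was called lower in ACTH and 0 were called in SHR against WKY, and 2 of the 7 had a positive change in ACTH. In SHR against ACTH 2, Col1a1 and Col1a2, were called higher. The summed signal of the 7 was 11258 to 12208 in SHR, 8248 to 10406 in ACTH and 11040 to 13539 in WKY. Every ACTH array was thus below all others. Col1a2 was counted by its brighter probeset, 1370155_at, which just missed in ACTH (-0.81 ± 0.17, adjusted p = 0.052). Its other probeset, 1387854_at, was called lower there (-1.08 ± 0.15, adjusted p = 0.00865). Of 6 fat cell markers 4 had a probeset and 2 were tested, of which 1, Cfd, was called higher in ACTH. Those under the minimum, Plin1 and Lep, stood at 0.47 and 0.59 of WKY in SHR and at 0.60 and 1.08 in ACTH. These are ratios of low signals, since Plin1 read no more than 25.4 and Lep no more than 6.41 on any array. Of 2 tested Schwann cell markers 0 were called. Of 4 skeletal muscle markers only Acta1 was tested, and it was called higher in SHR. The others, under the minimum, stood at 1.47 (Ckm), 3.38 (Myh4) and 0.86 (Tnnt3) of WKY in SHR, and at 1.22, 1.20 and 0.54 in ACTH. These too are ratios of low signals: Ckm read no more than 44.2, Tnnt3 37.0 and Myh4 8.92 on any array. SHR and WKY overlapped for Myh4 and Tnnt3 but not for Ckm.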

How the data were processed

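RNA was amplified in 2 rounds by the submitters' protocol and hybridised to RAE230A arrays. The authors calculated 1 MAS5 signal per probeset and array, scaled each array to a target of 150 and deposited these intensity values on a linear scale. The deposited record of each array gave its scan day and was used for nothing else. Detection calls and array images were not used here. Of 15923 probesets, 57 were Affymetrix controls. Gene symbols came from the platform annotation (12783 probesets with 1 symbol, 312 with several, 2771 with none listed), and 12754 matched the RefSeq table of build GRCr8, which changed 0 of them.

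Log2 signals of probesets whose third-highest signal was at least 44 entered a means model of the 3 groups (limma 3.58.1 under R 4.3.3, with lmFit, contrasts.fit and eBayes, no trend), and two-sided p-values were adjusted over 9125 probesets. The minimum stands in place of the authors' presence rule, which needs detection calls. The fit had 6 residual and 4.42 prior degrees of freedom, and 3 arrays per group limit its precision. It was tested on simulated data. Single values were compared by exact permutation. For likeness, the 3 nearest probesets with 1 symbol of another gene were taken for each member probeset that passed the F test. Their group changes resemble those of the member by this selection. All member probesets were described. Of the wider list, called genes and up to 3 others per role with the highest mean signal were named. The members, the lists of wider and marker genes and the tests were chosen with earlier results of these data known. Alternatives covered the filter, scaling, log offset, variance, scan day, GAPDH ratio, replicate number and single arrays. A planned comparison is not reported here.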

Additional observations from a re-analysis of the deposited data

Results flagged for a closer look

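For 2 member probesets the change against WKY differed between the models by the test of the difference itself, SHR against ACTH, in which the WKY arrays cancel. F3 1369182_at differed by -0.98 (log2, SHR minus ACTH; adjusted p = 0.0106), with a mean signal of 471 ± 63.3 in SHR and 922 ± 20.3 in ACTH (SD, n = 3 each). Tfpi 1368323_at differed by 1.33 (adjusted p = 0.00827), with a mean signal of 126 ± 15.2 in SHR and 51.4 ± 13.2 in ACTH. Both p-values are limma's, adjusted over all tested probesets, and in both of these probesets the 3 SHR arrays lay on one side of the 3 ACTH arrays. The other Tfpi probeset, 1389780_at, overlapped between SHR and ACTH and did not pass (0.20, adjusted p = 0.85 in the same limma fit). With 3 arrays in each group no single array could be tested as standing apart.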

How the results depend on the processing

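Of 36 changes tested over the 12 member probesets, 9 were called, and 0 of these 9 changed sign in any alternative that was run. Calls of wider and marker genes, such as Fgl2, Pf4, C1qc and Reln, were not followed singly through the alternatives. The fixed scan day block, with 3 residual degrees of freedom, left 0 member calls in each comparison, and 25, 0 and 35 calls over all probesets in SHR against WKY, ACTH against WKY and SHR against ACTH, which had 187, 110 and 310 in the fit reported (members 3, 4 and 2). Testing all non-control probesets gave 1, 0 and 0 member calls and 72, 0 and 52 in all, and unmoderated contrasts gave 1, 0 and 1 and 88, 5 and 119. The GAPDH ratio as a covariate gave 0 member calls and 37 calls in all in SHR against WKY, and 0 and 0 in ACTH against WKY. Where 0 probesets were called in all, the ACTH calls of wider and marker genes were lost as well. Fits of the compared groups alone gave 98 calls in SHR against WKY and 2 member calls in ACTH against WKY. Leaving out 1 array gave 1 to 3, 1 to 4 and 1 to 3 member calls (1 in SHR against WKY without WKY 3; 1 in ACTH against WKY without WKY 1, WKY 3, ACTH 1 or ACTH 3 and 2 without ACTH 2 or SHR 3; 1 in SHR against ACTH without ACTH 1), and 103 to 215, 33 to 133 and 111 to 325 in all. The cause of these shifts was not tested, beyond the fewer degrees of freedom of the block and the larger number of probesets tested.

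F3 minus Tfpi moved to -0.61 (SHR against WKY), 0.57 (ACTH against WKY) and -1.18 (SHR against ACTH) with the other Tfpi probeset, and to -1.04 in SHR against WKY with log2 of signal plus 16. Without 1 array it ranged from -1.37 to -1.31, 0.75 to 1.12 and -2.46 to -2.09.

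Among uncalled changes, 10 turned sign in 1 or more alternatives. With the fixed scan day block they were Tfpi 1389780_at (-0.053 in SHR and -0.20 in ACTH against WKY), Plat (0.15 and 0.39) and Plau 1398287_at (-0.45, SHR against ACTH), the last also with scan day as a random block (-0.029). With the GAPDH covariate they were Pros1 in SHR (0.094), Plau 1387675_at in ACTH (-0.28) and Vwf in ACTH (0.0036). Without 1 array they were Plau 1387675_at in SHR (range -0.33 to 0.041) and in ACTH (-0.10 to 0.16), and in SHR against ACTH Thbd 1368901_at (-0.099 to 0.094) and Plau 1398287_at (-0.26 to 0.36).

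Same-numbered arrays did not deviate together (correlations of deviations from the group means -0.07 to 0.13), so the numbers were not taken as pairs. With a replicate block the member calls were 3, 3 and 3 and those over all probesets 160, 97 and 263, and both Thbd 1375951_at calls were lost (adjusted p = 0.088 in SHR and 0.083 in ACTH) while Mmrn1 in SHR passed (adjusted p = 0.025). Signals near or below the array median, as for 2 Thbd probesets, both Tfpi probesets outside SHR and 1 Plau probeset, limit what can be measured.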
